A study of Mus musculus with 8 samples.

Results

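The transcripts described here encode 10 transcription factors that define blood stem cells: Gata2, Runx1, Meis1, Mecom, Tal1, Lmo2, Lyl1, Gfi1b, Erg and Fli1. They were taken by name, and each was measured by 1 probe set that the platform annotation pairs with that gene alone, 10 of 19505 genes in all. Hematopoietic stem cells were sorted from the bone marrow of mice aged 6 to 10 weeks as lineage-negative cells that carry Sca-1, c-Kit and CD150 and lack CD48. All samples were cultured with mouse stem cell factor at 100 ng/ml. The vehicle group received sterile water and the other group received eltrombopag at 10 µg/ml, each for 16 h, with 4 arrays per group numbered 1 to 4. Strain and sex are not given in the sources used here. The labels call the arrays biological replicates and do not state whether their animals were separate, so p-values speak only to the spread among these cultures, which may be technical. The comparison asks which stem cell transcripts differ after exposure to the drug.

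These factors form a dense circuit in blood stem and progenitor cells, where several of them bind the same enhancers and the regulatory elements of each other's genes. Gata2 is a zinc finger protein and Runx1 a runt-domain protein. Tal1 and Lyl1 are related helix-loop-helix proteins that pair with E proteins and are bridged to GATA factors by Lmo2, which itself does not bind DNA. Erg and Fli1 are related ETS proteins, Meis1 is a homeodomain cofactor of HOX and PBX proteins, Mecom encodes the zinc finger protein EVI1, and Gfi1b is a zinc finger repressor. Eltrombopag is an oral drug that activates the human thrombopoietin receptor but not the mouse one, and it also binds iron.

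To show which of the circuit's own recognition sequences lie beside these genes, the 250 bases before each RefSeq start site (build GRCm38.p6) were searched on both strands. Of the 10 genes, 8 had entries, with 14 start sites between them; Lmo2 and Fli1 had none. The E-box CANNTG was found at 6 of 14 starts (42.9%), against 66.2% of all 32851 starts. Its forms include those read by Tal1 and Lyl1 with their partners and those of other helix-loop-helix proteins. The GATA motif AGATAA was found at 2 of 14 starts (14.3%, against 9.99% of all), the ETS motif CGGAAG at 3 (21.4%, against 13.6%) and the RUNX motif TGTGGT at 1 (7.14%, against 14.0%). No matches overlapped each other (0 of 16). A match is a description of letters and not of binding. The stretches below carry a GATA, ETS or RUNX match or, for Runx1, an E-box with the letters CACGTG. That E-box is printed as an example and not as a form particular to Tal1 or Lyl1. The E-box matches of the other genes, such as CATCTG at Mecom, are not printed. The same Runx1 start also had the E-boxes CAACTG and CAGGTG, and which protein reads any of them was not tested. They are written 5′ to 3′ on the strand of the gene, with the match on either strand in capitals.
Tal1, GATA: ctatagagtcttTTATCTttgagcaattcc
Erg, GATA: tttcagggtctcTTATCTctccactcccaa
Mecom, ETS: cccgtcgtctggCTTCCGaccactctggag
Lyl1, ETS: cagaattgtctcCTTCCGgagccctattcc
Meis1, ETS: tggccaccactaCTTCCGggttct
Meis1, RUNX: gtgccctgggtgTGTGGTgttagtgcctgg
Runx1, E-box: catcacttaagtCACGTGattggcaagagc
The Tal1 stretch lies on the plus strand at chr4:115056209-115056238 and the Lyl1 stretch on the plus strand at chr8:84701263-84701292. The others lie on the minus strand, Erg at chr16:95459434-95459463, Mecom at chr3:30013230-30013259, Meis1 at chr11:19018970-19018993 for ETS and chr11:19019118-19019147 for RUNX, and Runx1 at chr16:92826128-92826157. All 7 stretches lie upstream of a start site of their gene.

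The 8 arrays were closely alike, with correlations across genes of at least 0.987 between any pair. The sort markers had log2 values of 12.9 for Kit, 7.04 for Slamf1, which encodes CD150, and 6.08 for Cd48, as means over 8 arrays, where the arrays' mean lower quartile was 5.05 and their mean median 6.78. Ly6a, which encodes Sca-1, was not matched to a named probe set. Of the marker lists for other cells, the mean fell below the lower quartile for 6 of 8 mast cell and basophil genes, 4 of 6 T and NK cell genes, 3 of 8 endothelial and stromal genes, 1 of 5 B cell genes, 1 of 6 megakaryocyte genes, 1 of 4 erythroid genes and 0 of 7 neutrophil and monocyte genes. Of the multipotent progenitor genes it was 1 of 5. Cd34 (11.9) and Flt3 (9.10) lay above the median of the arrays, and Cd48 (6.08), Mpo (5.71) and Ctsg (4.73) lay below it. In bulk samples, fewer cells of a type and less RNA per cell cannot be told apart.

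None of the 10 factors differed between eltrombopag and vehicle beyond the test's threshold. limma with Benjamini-Hochberg adjustment over all genes called 0 of 10, where the share of all genes called was 0%. At an unadjusted p under 0.05 there were 0 of the 10 factors and 650 of all genes (3.33%). The largest difference on the log2 scale was -0.13 for Erg and 0.13 for Lmo2. The median log2 difference of the 10 was -0.012, against 0.0071 over all genes, and their median absolute difference was 0.035, against 0.083 over all genes and 0.074 over genes with a mean above the median. All 10 factors lay in that brighter part of the genes. The difference was above 0 for 4 factors and below 0 for 6, or 3 and 7 when arrays were quantile normalised again or set to equal medians, since Runx1 then changed sign.

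The size of change that these arrays could have missed was described by the 95% intervals. Each is for 1 factor alone, from the fit with group as the only term, and rests on the spread among these cultures. For all 10 factors the interval lay within a 1.5-fold change in either direction, which held for 88.0% of all genes and 89.4% of the brighter genes. The lowest bound was a ratio of 0.777, for Tal1, and the highest a ratio of 1.40, for Lmo2. With 1 array left out, the upper bound of Lmo2 passed a 1.5-fold change in 2 settings, at 0.592 on the log2 scale without vehicle array 4 and 0.595 without eltrombopag array 2. The groups did not overlap for 0 of 10 factors, against 2.12% of all genes. The direction was the same in all 4 pairs of equal number for 0 of 10, against 12.6% of all genes.

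**Figure D1:**
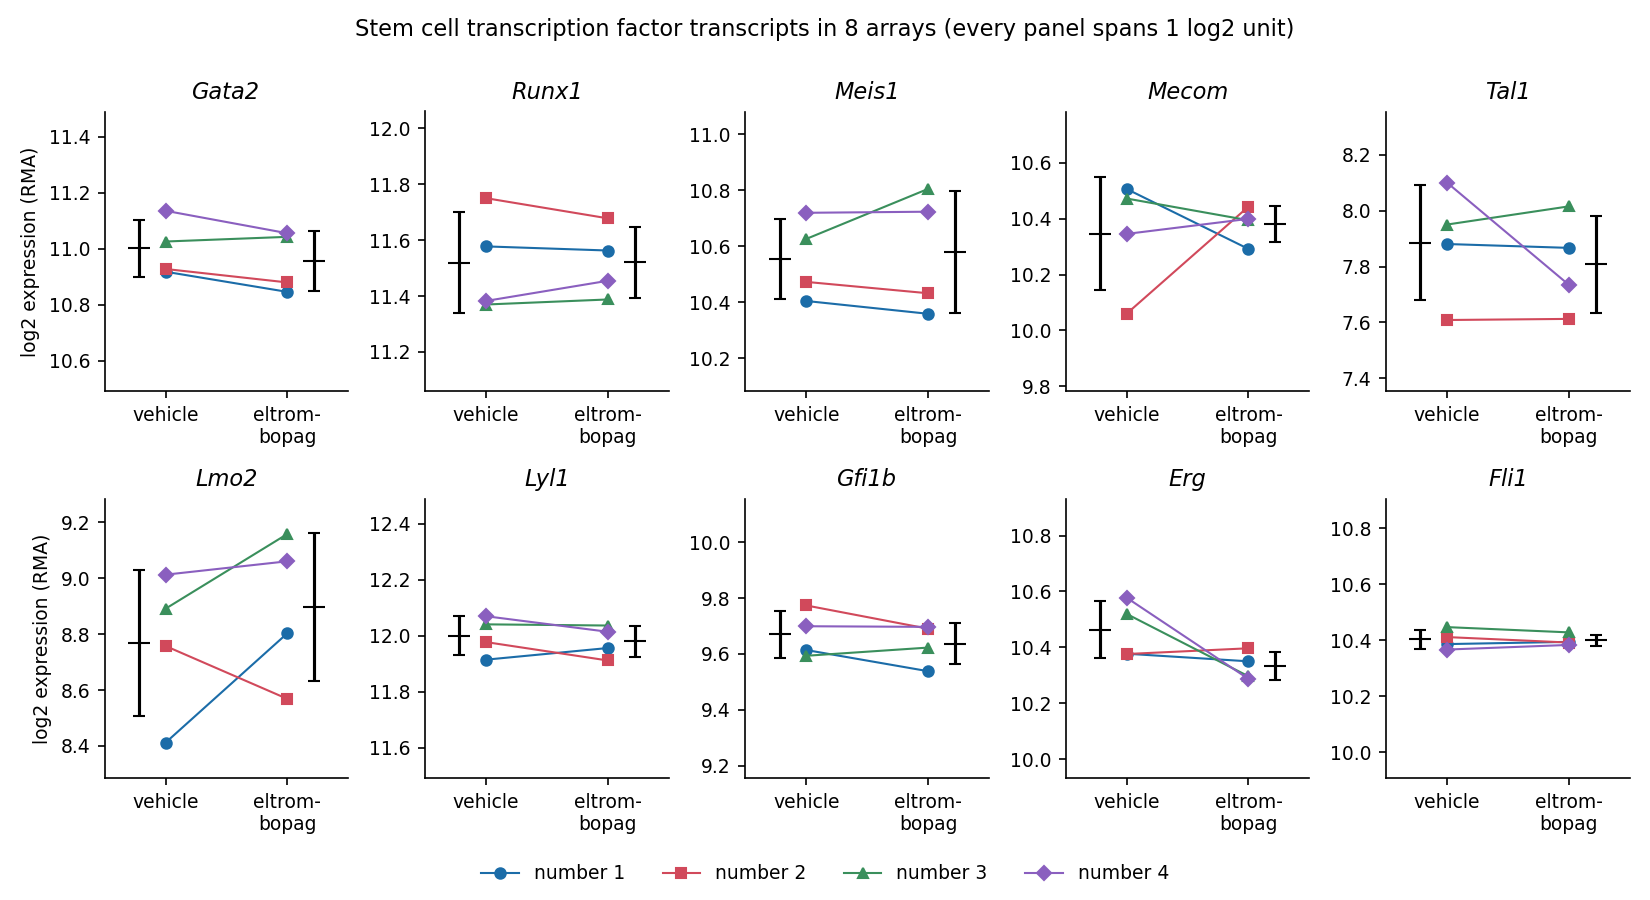
Log2 expression (y axis, RMA values; every panel spans the same height) of the 10 factors with vehicle and eltrombopag (x axis); a line joins the 2 arrays of equal replicate number, and black bars give the group mean ± SD (n = 4). The groups overlap in every panel, and for Gata2, Runx1 and Meis1 numbers 1 and 2 lie apart from numbers 3 and 4 in both groups.

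Among the DNA-binding regulators at the head of the circuit, Gata2, which stem cells need to form and persist, had log2 values of 10.92, 10.93, 11.03 and 11.14 in vehicle arrays 1 to 4 and 10.85, 10.88, 11.04 and 11.06 in eltrombopag arrays 1 to 4. The groups covered nearly the same range, and numbers 1 and 2 were the low ones in both. Its log2 difference was -0.046 (SE 0.098, interval -0.26 to 0.17; adjusted p 0.99978 in limma, as for each of the 10), and with 1 array left out it ran from -0.079, without eltrombopag array 4, to -0.0013, without vehicle array 4. Runx1, which is required for the first blood stem cells to emerge, had 11.58, 11.75, 11.37 and 11.38 with vehicle and 11.56, 11.68, 11.39 and 11.45 with eltrombopag. Here numbers 1 and 2 were the high ones in both groups. The group means were 11.52 ± 0.18 (SD, n = 4) and 11.52 ± 0.13 (SD, n = 4), with a difference of 0.00082 (interval -0.26 to 0.26), too near 0 for a direction.

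Meis1 and Mecom mark self-renewing cells and are both known as leukaemia genes. Meis1 had log2 values of 10.40, 10.47, 10.63 and 10.72 with vehicle and 10.36, 10.43, 10.81 and 10.72 with eltrombopag. The drug arrays bracketed the vehicle arrays on both sides. The difference was 0.024 (SE 0.13, interval -0.26 to 0.31). Mecom had 10.51, 10.06, 10.47 and 10.35 with vehicle and 10.29, 10.44, 10.39 and 10.40 with eltrombopag. Vehicle array 2 was the lowest of the 8, and the drug arrays were close together, with an SD of 0.064 against 0.20 with vehicle. The difference in Mecom was 0.036 (SE 0.11), and it was -0.059 without vehicle array 2.

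Tal1 and Lmo2, which meet in 1 complex on DNA, had the largest SDs within groups of the 10, at 0.19 and 0.26. Meis1 came close behind at 0.18. Tal1 and Lmo2 also had the lowest mean log2 values of the 10, at 7.85 and 8.83 over 8 arrays. Tal1, whose loss prevents all blood formation, had log2 values of 7.88, 7.61, 7.95 and 8.10 with vehicle and 7.87, 7.61, 8.02 and 7.73 with eltrombopag. Within numbers 1 to 3 the arrays of a number lay within 0.065 of each other, and in number 4 the drug array differed from the vehicle array by -0.37. The difference in Tal1 was -0.078 (SE 0.13). With 1 array left out it ran from -0.17, without vehicle array 2, to -0.0059, without vehicle array 4. Lmo2 had 8.41, 8.76, 8.89 and 9.01 with vehicle and 8.80, 8.57, 9.16 and 9.06 with eltrombopag. It was higher with the drug in 3 of 4 pairs, and in number 2 the difference was -0.19. Its difference of 0.13 (SE 0.16) was 0.011 without vehicle array 1 and 0.24 without eltrombopag array 2, and it had the widest interval of the 10 (-0.23 to 0.49).

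Lyl1, the close relative of Tal1 that can stand in for it in adult stem cells, had an SD within groups of 0.063. Its log2 values were 11.91, 11.98, 12.04 and 12.07 with vehicle and 11.96, 11.91, 12.04 and 12.01 with eltrombopag. The groups overlapped almost fully, with a difference of -0.021 (SE 0.087). Gfi1b, a repressor that restrains stem cell expansion and is needed for red cells and megakaryocytes, had 9.61, 9.77, 9.59 and 9.70 with vehicle and 9.54, 9.69, 9.62 and 9.70 with eltrombopag. In numbers 3 and 4 its values differed by 0.029 and -0.0022, and in numbers 1 and 2 by -0.076 and -0.083. The difference over all arrays was -0.033 (SE 0.091).

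Of the 2 ETS factors, Erg, which sustains stem cell self-renewal, had log2 values of 10.38, 10.38, 10.52 and 10.58 with vehicle and 10.35, 10.40, 10.30 and 10.29 with eltrombopag. Vehicle arrays 3 and 4 were the highest of the 8 and eltrombopag arrays 3 and 4 the lowest, while the arrays of numbers 1 and 2 mixed. The difference was -0.13 (SE 0.091, interval -0.33 to 0.072), with the smallest unadjusted p of the 10 (0.184). Within numbers 3 and 4 it was -0.26 and within numbers 1 and 2 it was -0.0034, and neither passed in limma (adjusted p 0.997 and 0.99974). Fli1, which shares many binding sites with Erg and also drives megakaryocyte genes, had 10.39, 10.41, 10.45 and 10.37 with vehicle and 10.39, 10.39, 10.43 and 10.38 with eltrombopag. Its SD within groups was 0.028, the smallest of the 10, where the median of the 10 was 0.13, the highest was 0.26 for Lmo2, and the median of the brighter genes was 0.17. The difference in Fli1 was -0.0035 (interval -0.18 to 0.18), and no direction is given.

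**Figure D2:**
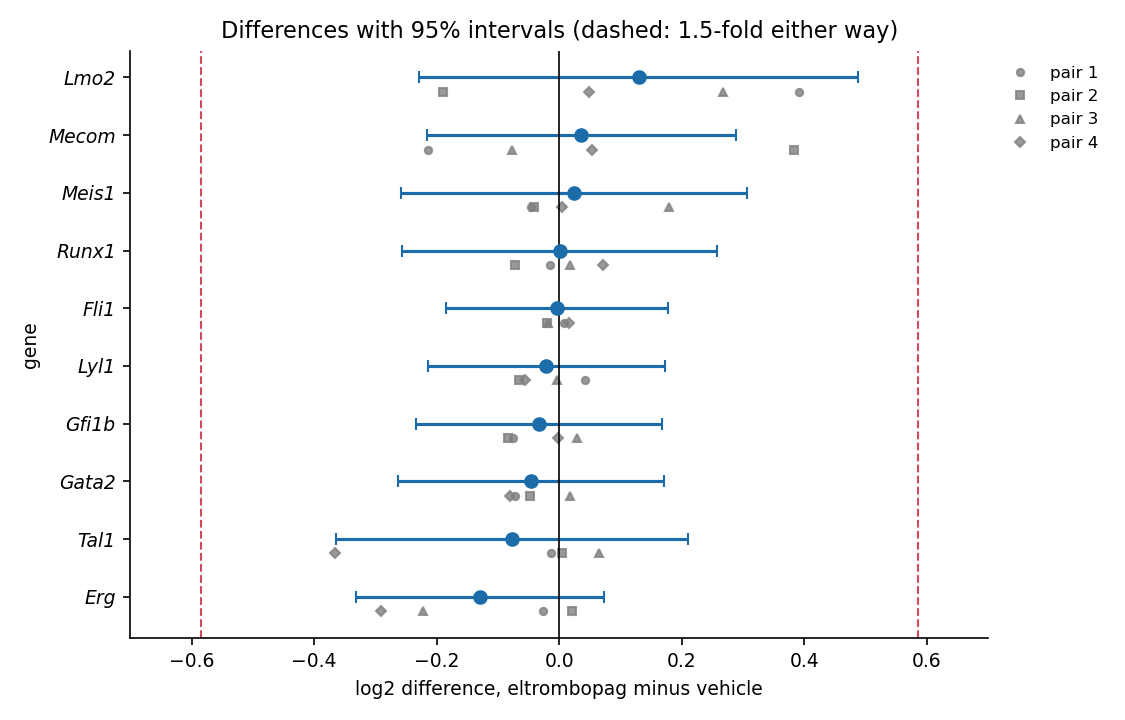
Log2 difference between eltrombopag and vehicle (x axis) of each factor (y axis), with its 95% interval from limma; grey symbols are the 4 differences between arrays of equal number, and dashed lines mark a 1.5-fold change. Every interval crosses 0 and stays inside the dashed lines, from -0.36 at the low end of Tal1 to 0.49 at the high end of Lmo2.

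The values also varied among the replicate numbers. The mean of the 2 arrays of a number spanned 0.43 between the lowest and the highest number for Lmo2, 0.37 for Tal1, 0.34 for Meis1, 0.33 for Runx1 and 0.21 for Gata2, against 0.069 for Erg and 0.063 for Fli1. The median span was 0.20 for the 10 factors and 0.28 for all genes. In an F test over the 4 numbers, limma called 0 of the 10 factors, with adjusted p from 0.514 (Lmo2 and Meis1) to 0.985 (Erg), and 0.21% of all genes. At an unadjusted p under 0.05 there were 0 of the 10 and 10.2% of all genes. With limma's trend and robust settings, 4 of the 10 had an unadjusted p under 0.05 (Runx1 0.00084, Meis1 0.0043, Gata2 0.031 and Lmo2 0.041). The share of all genes under that p was not counted in these settings, so the 4 cannot be set against it. In the fit of the brighter genes alone, and without the arrays numbered 2, the count was 1 of the 10. It was 0 in the remaining settings. With the trend and robust settings, 0 of the 10 were called, and the lowest adjusted p was 0.066, for Runx1. There 198 of all genes were called in place of 41. This test treats the 2 arrays of a number as independent.

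For 5 of the 10 factors, the 4 arrays of numbers 1 and 2 did not overlap the 4 arrays of numbers 3 and 4, against 7.24% of all genes. The share among the brighter genes alone, to which all 10 factors belong, was not counted. This grouping of the numbers was chosen after it had been seen across all genes, and no test was made of it. Gata2 ran from 10.85 to 10.93 in numbers 1 and 2 and from 11.03 to 11.14 in numbers 3 and 4. Meis1 ran from 10.36 to 10.47 against 10.63 to 10.81, Lmo2 from 8.41 to 8.80 against 8.89 to 9.16, and Lyl1 from 11.91 to 11.98 against 12.01 to 12.07. These 4 were thus lower in numbers 1 and 2, while Runx1 was higher there, at 11.56 to 11.75 against 11.37 to 11.45. In the other 5 factors the numbers overlapped. Whether a number stands for a set of animals, a day or a culture is not stated in the labels.

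**Figure D3:**
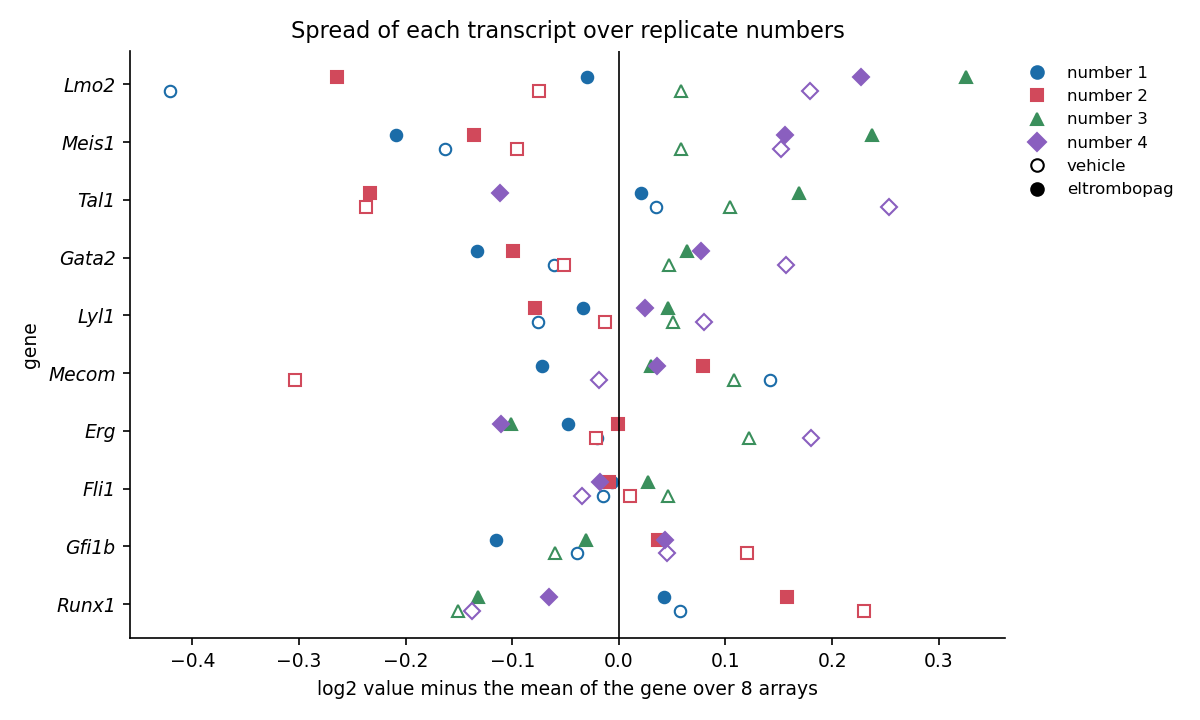
Log2 value of each array minus the mean of that gene over 8 arrays (x axis) for each factor (y axis); colour and shape give the replicate number, open symbols are vehicle and filled symbols eltrombopag. Numbers 1 and 2 lie to the left of numbers 3 and 4 for Lmo2, Meis1, Gata2 and Lyl1 and to their right for Runx1, and the symbols of Fli1 stay near 0.

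The genes around the circuit were described from 4 further lists, of which 0 members passed, as did 0% of all genes. Of 28 measured partners of these factors or of the proteins they pair with, 17 were higher and 11 lower with eltrombopag. Their median log2 difference was 0.018. Pbx3, a DNA-binding partner of Meis1, had the smallest p of them, with 6.78, 6.67, 6.79 and 7.01 with vehicle and 7.21, 6.97, 7.43 and 7.38 with eltrombopag. It was higher in 4 of 4 pairs, where 12.6% of all genes had the same direction in all 4. Pbx3 was picked by its p-value, so the agreement of its pairs is no separate support. Its groups overlapped, and its difference of 0.43 (SE 0.12) did not pass (adjusted p 0.99978 in limma). The inhibitor of E proteins Id3 differed by -0.24 and Ssbp2, which stabilises the Ldb1 bridge of the Lmo2 complex, by -0.26, both without passing. Of 16 family relatives, 10 were higher (median 0.037). The smallest p-values were those of Ets2 (-0.24), Tal2 (0.17) and Gata1 (0.11), the erythroid and megakaryocyte relative of Gata2.

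Of 21 other regulators of blood stem cells, 7 were higher and 14 lower (median -0.045). Bmi1, a Polycomb protein of self-renewal, had log2 values of 8.80, 8.87, 8.73 and 8.72 with vehicle and 8.50, 8.79, 8.20 and 8.18 with eltrombopag. It was lower in 4 of 4 pairs, where 12.6% of all genes had the same direction in all 4, though eltrombopag array 2 lay within the vehicle range. Bmi1 too was picked by its p-value, and its difference of -0.37 (SE 0.14) did not pass (adjusted p 0.99978 in limma). Sox17, which acts in fetal stem cells and lay below the lower quartile of the arrays, differed by -0.21 and Foxo1 by -0.11. Of 27 genes that the 10 factors are known to bind or control, 15 were higher (median 0.018), and Kit itself differed by -0.010. Epor, the erythropoietin receptor, differed by 0.34 (SE 0.14), the sialomucin Emcn by 0.50 (SE 0.28) and the platelet chemokine Pf4 by 0.26 (SE 0.19), and none of these passed. The groups did not overlap for 0 genes of the 4 lists, against 2.12% of all genes.

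**Figure D4:**
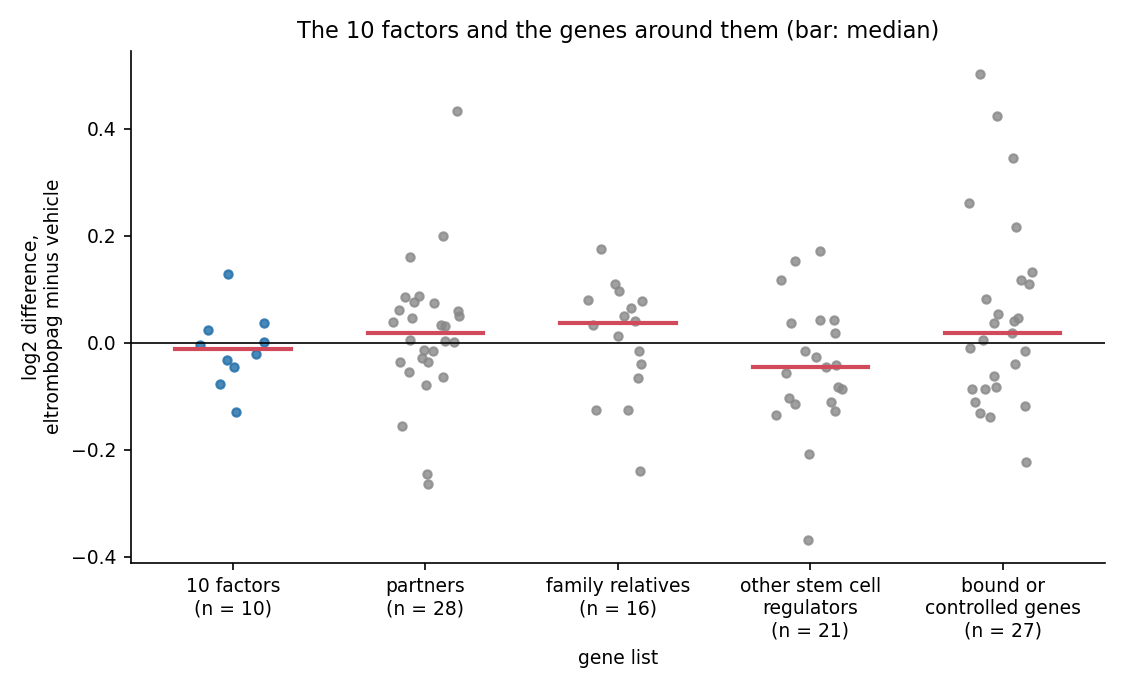
Log2 difference between eltrombopag and vehicle (y axis) for the 10 factors and for the measured genes of 4 related lists (x axis); each point is a gene and each red bar the median of its list. The 10 factors stay between -0.13 and 0.13, and single genes of the other lists reach -0.37 (Bmi1), 0.43 (Pbx3) and 0.50 (Emcn).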

How the data were processed

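RNA from 8 cultures was amplified from the 3' end and biotin-labelled, per the labels' protocols. The authors deposited 1 log2 value for each probe set on each array. RMA, oligo and limma are named, with no version or role, in the submitters' processing notes. RMA sets arrays to a common distribution, so differences in total RNA are removed. A genome build for the array is not given in these sources. Of 22206 probe sets, 19572 had 1 gene symbol, 0 had several and 2634 were unnamed, which gave 19505 genes; the probe set with the highest mean stood for the 55 genes with several. No filter on dim genes was set.

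The 2 groups were compared with limma 3.58.1 in R 4.3.3 (group as the only term, two-sided, adjusted over all genes, called under 0.05). The fit was also run on simulated data with known changes, and its outcome there is not given here. Precision is limited by having 4 arrays a group, and the 95% intervals of the factors had a median half-width of 0.23. Deviations from group means correlated at 0.13 to 0.29 for arrays of equal number and at -0.20 to 0.17 otherwise. On this evidence from the data, not the labels, equal numbers were treated as pairs in the replicate block. The evidence does not separate numbers 3 and 4. Crossing those numbers gave r of 0.17 in either combination, against 0.18 within number 3 and 0.13 within number 4. The factors, lists and alternatives were chosen with earlier results of these data known. From each list the 3 genes with the smallest p-values were named, and Kit as a sort marker. Promoters are RefSeq's.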

Additional observations from a re-analysis of the deposited data

Results flagged for a closer look

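In 25 genes, the 10 factors among them, each group of 4 arrays (50 groups) was searched for 1 array apart from the rest, which chance gives in about 1 group in 20. None of the 20 groups of the factors held one. Pf4, a megakaryocyte gene, stood at 8.70 on the log2 scale in eltrombopag array 2 while the remaining drug arrays lay between 9.15 and 9.22, a gap of 0.864 of the range.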

How the results depend on the processing

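In 18 alternatives, including the replicate block and each array left out, limma called 0 genes and 0 of the 10 factors; at an unadjusted p under 0.05 the replicate block gave 904 genes, 0 of them among the factors, and it changed no call. The median of the 10 differences ran from -0.038 to -0.0036 with 1 array left out and from -0.027 to -0.0065 otherwise. Gata2 (-0.079 to -0.0013 with 1 array left out), Tal1 (-0.17 to -0.0059), Lmo2 (0.011 to 0.24) and Erg (-0.16 to -0.092) kept their sign throughout. In numbers 1 and 2 only, Tal1 was -0.0049 and Erg -0.0034, so a kept sign does not stand for a settled direction. The other 6 lay near 0 and changed sign in at least 1 setting: Runx1 was -0.0043 with quantile normalization, -0.0090 with equal medians, -0.0049 without both arrays numbered 3 and -0.043 in numbers 1 and 2 only; Meis1 was -0.027 without the arrays numbered 3 and -0.043 in numbers 1 and 2 only; Fli1 was 0.0016 without the arrays numbered 3; in numbers 3 and 4 only, Mecom was -0.012 and Gfi1b 0.014. The cause was not tested. With 1 array left out, Runx1 ran from -0.052 to 0.078, Meis1 from -0.051 to 0.098, Mecom from -0.059 to 0.090, Lyl1 from -0.050 to 0.0021, Gfi1b from -0.058 to 0.0015 and Fli1 from -0.016 to 0.011. Among the 4 numbers, 0 factors were called in 10 alternatives. Over all genes the count was 41 in the main fit and 198 with eBayes trend and robust settings. It was 2 to 13 with both arrays of a number left out, which tests fewer arrays, and 40 to 42 in the remaining alternatives. Signal over background per probe set was not used here.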

Other observations

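The 5 other genes of the brighter part whose deviations over the 8 arrays most resembled the mean deviation of the 10 factors were Vsig2 (Pearson r 0.995), Tmsb4x (0.993), Ulk1 (0.992), Cdc6 (0.991) and Ampd3 (0.983). The resemblance is over 8 arrays that share their replicate numbers. It is a description of genes picked from the brighter genes for it. The mean was taken over unscaled deviations, so factors with a large spread, such as Lmo2, weigh more in it. Runx1 ran the other way between numbers 1 and 2 and numbers 3 and 4, so the mean does not stand for each factor.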
